A study of Mus musculus with 2 samples.

Results

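The genes described here serve glucose uptake and breakdown: the glucose transporter Slc2a1 and the enzymes Hk1, Hk2, Pfkl, Aldoa, Gapdh, Pgk1, Eno1, Pkm and Ldha. They were taken by symbol from the known genes of the pathway, and no threshold on a measured value was used. The choice was made with earlier results of these data known, so the set is not independent of them. They are 10 of the 27998 genes listed in the files.

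Glycolysis splits glucose into pyruvate in the cytosol and yields ATP without oxygen. Glucose enters through facilitative transporters, is trapped by phosphorylation, is split into triose phosphates, and leaves as pyruvate or, after reduction, as lactate. In fat tissue, stromal progenitors, endothelial cells and macrophages all run the pathway, and activated macrophages are known to rely on it.

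The study sequenced single cells of the stromal vascular fraction, the non-adipocyte cells of fat, from the epididymal depot of C57BL/6 mice, which the paper describes as C57BL/6J males. 1 group received a low-fat diet (LFD) and the other a high-fat diet (HFD), each from 6 weeks of age and for 24 weeks. The groups rest on the treatment label of each library, because the protocol text shared by both names only the low-fat diet. The methods also mention mice of 24 weeks of age, which differs from these times. The libraries were 10x Chromium 3′ v3, with 1 library per diet, and the number of mice behind each is not stated. Every diet difference is therefore a difference between 2 libraries, and diet, mouse, tissue dissociation and library preparation cannot be told apart.

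Counts are UMIs (unique molecular identifiers, 1 per captured RNA molecule): 7356278 in 1113 LFD barcodes and 8412325 in 1144 HFD barcodes. Median depth was close, at 6197 UMIs on LFD against 6486 on HFD, and so was the median number of genes, at 2180 against 2209. No barcode sequence (0 of 2257) stood in both libraries. Barcodes with at least 200 genes, 1057 and 1117, were sorted by the UMIs of a few genes, none of them a member: Dcn for fibroblasts, Cdh5 and Cldn5 for endothelial cells, Rgs5, Kcnj8, Abcc9 and Notch3 for mural cells, C1qa, C1qb and C1qc for macrophages, and Cd3d, Cd3e and Cd3g for T cells. Macrophages were split into Cd9-positive, with at least 1 Cd9 UMI, and Cd9-negative. Exactly 1 rule was met by 781 LFD and 753 HFD barcodes, several by 66 and 121, and none by 210 and 243.

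The classes held 377 LFD and 291 HFD fibroblasts, 98 and 115 endothelial cells, 225 and 204 Cd9-negative macrophages, 4 and 116 Cd9-positive macrophages, 72 and 21 T cells, and 5 and 6 mural cells. Median depth in LFD and HFD was 8500 and 7903 UMIs in fibroblasts, 4317.5 and 3156 in endothelial cells, and 6296 and 6460.5 in Cd9-negative macrophages. It was 7204 and 8879.5 in Cd9-positive macrophages and 2764.5 and 1781 in T cells. Of the barcodes that met the mural rule, 58 of 64 on LFD and 108 of 116 on HFD also met the endothelial rule, which left too few purely mural barcodes for single-gene values.

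Marker lists matched most class names. The 8 fibroblast markers summed to 30638 CPM (UMIs per 1e6 UMIs of the class) on LFD and 43718 CPM on HFD in fibroblasts, against 175 and 180 CPM in endothelial cells. The 10 endothelial markers reached 15375 and 16465 CPM in endothelial cells against 48.1 and 33.0 CPM in fibroblasts. Of these markers 2 are also in the rule, and the most abundant, Cldn5, is among them, so the sorting itself fixed part of this contrast. The 8 macrophage markers reached 12374 and 14107 CPM in Cd9-negative and 12465 and 13462 CPM in Cd9-positive macrophages. T cells were less clean on LFD: the 6 T cell markers with an entry in the files summed to 1092 and 2024 CPM, but macrophage markers stood at 4873 CPM on LFD and 63.9 CPM on HFD. Among these T cells, 7 of the 72 LFD barcodes held 1591 of the 1598 macrophage-marker UMIs.

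Levels are pooled UMIs of a class as CPM, with exact Poisson 95% intervals. Ratios carry exact conditional binomial 95% intervals in brackets, and shares of barcodes carry exact Clopper-Pearson 95% intervals. These intervals cover counting error only and say nothing of variation between mice, so no test of diet was possible. A count of 0 is read against a limit of 3 counts.

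Together the members took 1421 CPM of LFD and 1440 CPM of HFD fibroblasts. T cells stood highest on LFD, at 2055 CPM (1903 to 2216), and Cd9-positive macrophages on HFD, at 2640 CPM (2560 to 2722). Cd9-negative macrophages on LFD stood lowest of the classes with at least 20 barcodes, at 1054 CPM (1002 to 1109). Single barcodes within a class spread widely: the members' share of UMIs in HFD Cd9-positive macrophages ran from 0.0132% to 0.545%, with a median of 0.186%. In LFD Cd9-negative macrophages the median share was 0.0938% and the highest 0.394%. Gapdh gave the most UMIs of the 10 in each library over all barcodes, classed or not, 3749 and 5370, and Pgk1 the fewest, 50 and 57. These are UMI levels from 3′ ends, which do not scale with transcript length, and differences in capture between genes were not measured.

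Slc2a1 encodes GLUT1, the widely expressed glucose transporter of the cell membrane. On LFD it stood at 51.8 CPM (30.2 to 83.0) in T cells and 23.5 CPM (12.5 to 40.2) in endothelial cells, whose intervals overlap. Fibroblasts held 5.38 CPM (3.13 to 8.61), and Cd9-negative macrophages 0.698 CPM from 1 UMI. On HFD, T cells had 21.3 CPM from 1 UMI and Cd9-positive macrophages 19.2 CPM (12.9 to 27.4), with fibroblasts, Cd9-negative macrophages and endothelial cells between 6.19 and 3.87 CPM. Fibroblasts thus stood 3rd of the 6 classes in both libraries, and the place of endothelial cells differed between them.

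Hk1 and Hk2 encode hexokinases, which phosphorylate glucose and so hold it in the cell; Hk2 is the form typical of insulin-responsive tissue. Hk1 was 59.7 CPM (41.1 to 83.8) in LFD and 54.2 CPM (36.0 to 78.4) in HFD endothelial cells, against 32.6 CPM (26.6 to 39.5) and 25.6 CPM (19.6 to 32.8) in fibroblasts. Endothelial cells stood first for Hk1 on LFD, overlapping the next class; on HFD only the mural class, with 1 UMI, stood above them, and the fibroblasts below did not overlap.

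Hk2 was highest in fibroblasts instead. It reached 118 CPM (106 to 131) in LFD and 107 CPM (94.3 to 121) in HFD fibroblasts, without overlap with the next class in either library. Endothelial cells had 0 Hk2 UMIs in both libraries, which allows up to 5.43 and 5.81 CPM. A Hk2 UMI was found in 139 of 377 LFD fibroblasts (36.9%, 32.0 to 42.0%) and 122 of 291 HFD fibroblasts (41.9%, 36.2 to 47.8%). The same count was 0 of 98 and 0 of 115 in the shallower endothelial barcodes. Read against 3 counts, this allows shares with a UMI of up to 3.06% and 2.61%. The exact upper limits are 3.69% and 3.16%. Neither limits the share of cells that express Hk2. With every barcode thinned to 1000 UMIs, the shares were 11.6% and 9.34% in fibroblasts and 0 of 91 and 0 of 96 in endothelial cells. Hk2 therefore separated the fibroblast from the endothelial class at equal depth in both libraries. Macrophages lay between, at 22.3 and 14.9 CPM in the Cd9-negative class.

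Pfkl encodes the liver form of phosphofructokinase, the committed step of the pathway. It was 25.3 CPM (13.8 to 42.5) in LFD and 17.4 CPM (7.97 to 33.1) in HFD endothelial cells, and 8.23 CPM (5.37 to 12.1) and 4.95 CPM (2.56 to 8.65) in fibroblasts. Fibroblasts were the lowest class above 0 in both libraries, without overlap with the class above them on HFD.

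Aldoa encodes aldolase A, which splits fructose bisphosphate. In fibroblasts it stood at 375 CPM (354 to 397) on LFD and 395 CPM (370 to 421) on HFD. Endothelial cells followed at 295 CPM (251 to 344) and 285 CPM (240 to 335), below the fibroblast intervals. Cd9-negative macrophages held 156 CPM (136 to 177) and 226 CPM (201 to 253). Only the mural class, from 9 and 5 UMIs, and on HFD the Cd9-positive macrophages, at 428 CPM (397 to 462), stood above fibroblasts, and both overlapped them.

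Gapdh encodes the dehydrogenase that makes NADH in the pathway, and Pgk1 the kinase that then makes ATP. Gapdh was highest in LFD T cells, at 778 CPM (685 to 879), above the endothelial 590 CPM (528 to 657). Without the 7 T cell barcodes rich in macrophage markers, a step chosen after seeing the data, it was 748 CPM (635 to 874), which overlaps the endothelial interval. On HFD it was highest in Cd9-positive macrophages, at 961 CPM (913 to 1011), overlapping T cells at 788 CPM (555 to 1086). Fibroblasts had 455 and 451 CPM. Pgk1 was sparse, with 19 and 12 UMIs in fibroblasts and at most 14 in any other class, and no neighbouring classes were apart.

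Eno1 encodes enolase 1, Pkm pyruvate kinase and Ldha the lactate dehydrogenase subunit that turns pyruvate into lactate. Eno1 was higher in macrophages than in fibroblasts in both libraries: 89.3 CPM (74.5 to 106) on LFD and 135 CPM (116 to 156) on HFD in Cd9-negative macrophages, against 48.7 CPM (41.3 to 57.1) and 41.7 CPM (34.0 to 50.7) in fibroblasts. T cells had 180 CPM (137 to 232) on LFD and 63.9 CPM from 3 UMIs on HFD. Cd9-positive macrophages stood first for Eno1 in both libraries, at 236 CPM (118 to 423) and 143 CPM (124 to 163), overlapping the next class. Pkm was highest in LFD T cells, at 335 CPM (276 to 404), and in HFD Cd9-positive macrophages, at 585 CPM (548 to 624), each overlapping the next class. Fibroblasts, Cd9-negative macrophages and endothelial cells had overlapping Pkm levels on LFD, between 186 and 198 CPM; on HFD, fibroblasts, at 150 CPM (135 to 166), lay below the endothelial 246 CPM (205 to 293). Ldha ran from 114 CPM (97.6 to 133) in Cd9-negative macrophages to 366 CPM (303 to 438) in T cells on LFD, where endothelial cells, at 324 CPM (278 to 375), overlapped them. On HFD, Cd9-positive macrophages led at 438 CPM (406 to 472), overlapping T cells, and T cells, fibroblasts, Cd9-negative macrophages and endothelial cells overlapped between 236 and 256 CPM.

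**Figure D1:**
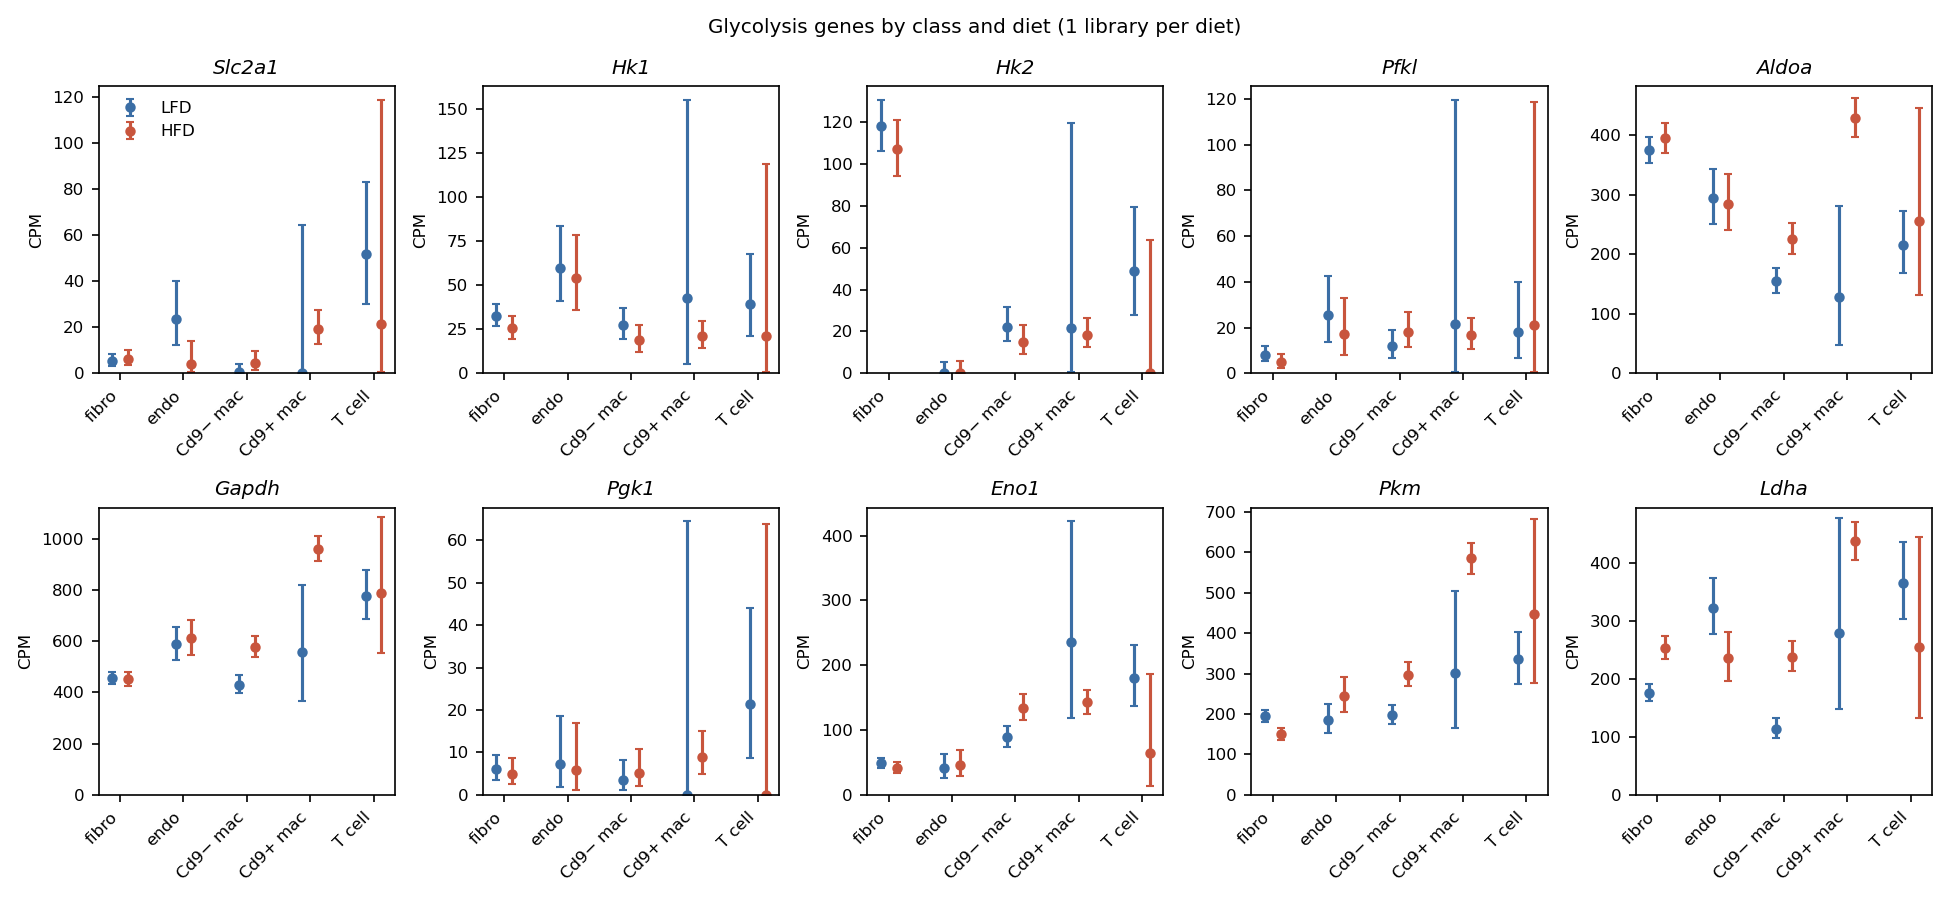
CPM of each member (vertical axes) in 5 classes of barcodes, with LFD in blue and HFD in red; points are pooled levels of 1 library and bars exact Poisson 95% intervals. Hk2 is highest in fibroblasts in both libraries, at 118 and 107 CPM, and Pkm, Gapdh, Aldoa and Ldha are highest in HFD Cd9-positive macrophages, from 428 to 961 CPM.

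A class was called high or low for a gene when its CPM was at least 1.5-fold above or below the mean of the other 5 classes in both libraries; all 10 members had the required 50 UMIs. Fibroblasts were high for 1 member, Hk2 (18.8% of 10634 genes were high), and low for 3, Slc2a1, Pfkl and Eno1 (20.3% were low). Endothelial cells were high for 0 members (17.2% of genes) and low for 2, Hk2 and Eno1 (21.2%). Cd9-negative macrophages were high for 0 (12.6%) and low for 3, Slc2a1, Hk2 and Aldoa (24.4%). T cells were high for 2, Slc2a1 and Pkm (11.6%), and low for 0 (33.7%). Calls in the mural class and the Cd9-positive class, with 4 to 6 barcodes in at least 1 library, are not counted here. On HFD the T cell call of Slc2a1 (3.16-fold) rests on 1 UMI, 21.3 CPM (0.539 to 119). The same UMI enters the mean beside which fibroblasts were low (0.634-fold), and fibroblasts stood above Cd9-negative macrophages and endothelial cells (6.19, 4.48 and 3.87 CPM). For the T cell call of Pkm (1.61-fold on HFD), 1 barcode held 8 of the 21 HFD UMIs.

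These counts depend on the settings. Low members fell to 1 in fibroblasts under the study's cell limits and with barcodes thinned to 1000 UMIs, and to 0 in Cd9-negative macrophages when thinned. High members in T cells ran from 1, with averaging over barcodes or doubled thresholds, to 4. Leaving out the mural and Cd9-positive classes, which was chosen after seeing the data, made fibroblasts high for 2 members (20.3% of 10319 genes), with Aldoa added (1.69-fold and 1.55-fold), and left them low for 3 (21.4%). Endothelial cells became high for 1 (17.2%), Hk1 (1.80-fold and 2.48-fold), and stayed low for 2 (22.5%). Cd9-negative macrophages stayed high for 0 (12.8%) and low for 3 (28.4%), with Hk1 (0.619-fold and 0.554-fold) in the place of Aldoa. T cells kept the 2 high (10.9%) and 0 low (34.1%) calls.

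Diet was then compared within each class. The summed level was higher on HFD in Cd9-negative macrophages, where it was 1054 CPM on LFD and 1538 CPM on HFD, a ratio of 1.46 (1.36 to 1.56). In fibroblasts the summed ratio was 1.01 (0.970 to 1.06), and in endothelial cells 0.970 (0.879 to 1.07). Differences between classes in these ratios were not tested. Cd9-negative barcodes may include cells whose Cd9 RNA was not captured, and their part in the ratio of 1.46 was not tested.

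In Cd9-negative macrophages the largest ratio among well-counted members was that of Ldha. It stood at 114 CPM on LFD and 239 CPM (214 to 267) on HFD, a ratio of 2.09 (1.73 to 2.54). Eno1, at 89.3 and 135 CPM, had a ratio of 1.51 (1.19 to 1.90), and Pkm, at 198 and 297 CPM, one of 1.5 (1.29 to 1.75). Ldha, Eno1 and Pkm were thus each higher on HFD in these barcodes. Aldoa, at 156 and 226 CPM, had a ratio of 1.45 (1.22 to 1.73), and Gapdh, at 431 and 579 CPM, one of 1.34 (1.21 to 1.5). The hexokinases ran the other way, with intervals that include 1: Hk1 had 39 and 25 UMIs, a ratio of 0.687 (0.398 to 1.16), and Hk2 32 and 20 UMIs, a ratio of 0.670 (0.363 to 1.21). Slc2a1 with 1 and 6 UMIs, Pfkl with 17 and 24, and Pgk1 with 5 and 7 were too sparse to call.

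Of the 7 members with at least 50 UMIs over both libraries, 3 were at least 1.5-fold higher (Eno1, Pkm and Ldha; 6.83% of 5816 genes were) and 0 at least 1.5-fold lower (9.7% were). The median log2 ratio was 0.54 over the 7 passed members, against −0.01 over all genes that passed. Over all 10 members, the sparse ones included, it was 0.57. Eno1 and Pkm sit at the 1.5-fold limit, and the count was 1 with barcodes thinned to 1000 UMIs or at a limit of 2-fold. Under the study's own cell limits, 200 to 2500 genes and under 5% mitochondrial UMIs, which keep 48 LFD and 47 HFD barcodes, the log2 ratio was 1.19 for Eno1. The same limits left Aldoa at a log2 ratio of 0.04.

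Depth and mitochondrial share were near equal in the Cd9-negative macrophages of both libraries, with medians of 5.68% and 5.61% mitochondrial UMIs. The summed ratio, in a split chosen after seeing the data, was 1.48 (1.35 to 1.62) among barcodes with at most 2500 genes and 1.45 (1.31 to 1.61) among those with more. That of Ldha was 2.08 (1.62 to 2.68) and 2.12 (1.57 to 2.89). By gene, the intervals of Aldoa with at most 2500 genes, 1.20 (0.955 to 1.52), and of Eno1 with over 2500 genes, 1.33 (0.934 to 1.89), include 1.

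**Figure D2:**
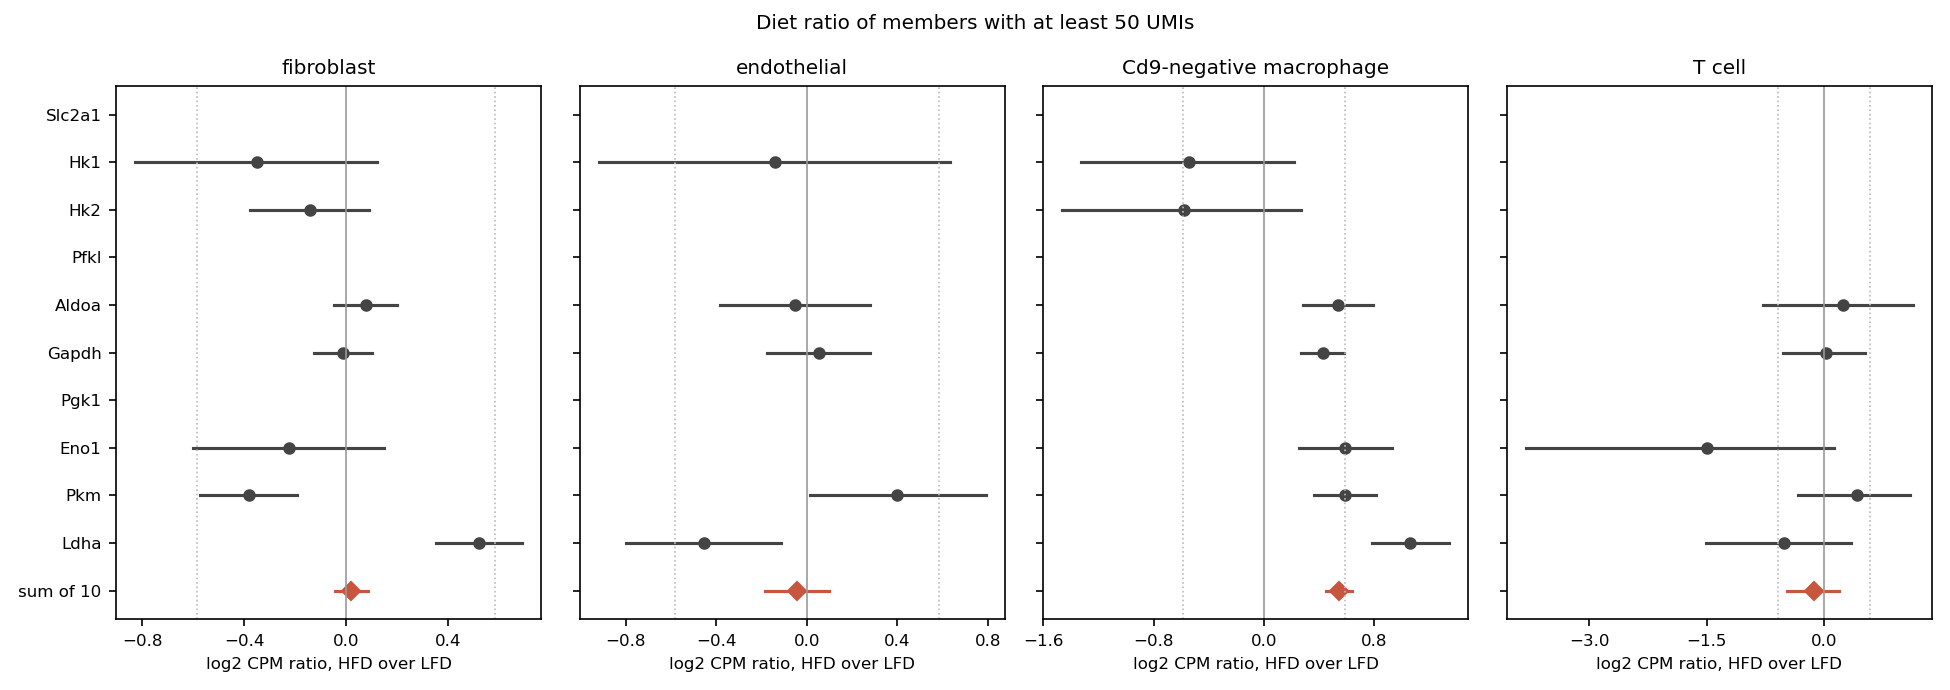
Ratio of HFD to LFD CPM (log2, horizontal axes) for members with at least 50 UMIs in 4 classes, with exact binomial 95% intervals; red diamonds are the sum of the 10 members, dotted lines mark 1.5-fold, and each panel has its own scale. In Cd9-negative macrophages Aldoa, Gapdh, Eno1, Pkm and Ldha lie above 0, with Ldha at 1.06, while in fibroblasts Ldha lies above 0 and Pkm below.

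Most other pathway lists in Cd9-negative macrophages had summed ratios nearer 1. The other glycolytic enzymes summed to 493 and 539 CPM, a ratio of 1.09 (0.984 to 1.21), with 1 of 5 passed genes higher, Pfkp (1.52), and 1 lower, Hk3 (0.543). Their most abundant genes were Gpi1, at 200 and 212 CPM, Tpi1, at 111 and 122 CPM, and Pgam1, at 72.6 and 100 CPM. Other glucose and lactate transporters had a ratio of 1.17 (1.01 to 1.34), led by Bsg, the chaperone of lactate transporters, at 195 and 229 CPM, with 0 of 3 passed genes called (Bsg, Slc2a8 and Slc16a7). The regulators and the pyruvate branch had one of 1.19 (1.06 to 1.33): of 7 passed genes Gpd2 was higher (1.68) and Pfkfb4 lower (0.549), and the mitochondrial pyruvate carriers Mpc1 and Mpc2, its most abundant genes, stood at 1.32 and 1.33.

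The pentose phosphate pathway, which branches off at glucose 6-phosphate, had a ratio of 1.32 (1.20 to 1.46), with 1 of 5 passed genes higher, Tkt (1.67), beside Pgls (1.29) and Taldo1 (1.34). Hypoxia-inducible factor and its known targets outside glycolysis summed to 520 and 561 CPM, a ratio of 1.08 (0.973 to 1.20). The 1 of 8 passed genes called was Hilpda, a lipid droplet protein, at 22.3 and 107 CPM, a ratio of 4.79 (3.24 to 7.26). Bnip3l (0.750) and Hif1a itself (0.865) were not higher on HFD.

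Signs of handling and of other cells also differed between the libraries, and their part in the member ratios was not tested. The 14 immediate early genes, which tissue dissociation can induce, were lower on HFD in these macrophages, at 16410 and 11920 CPM, a ratio of 0.726 (0.712 to 0.741). Of them 4 were at least 1.5-fold lower, Jun (0.542), Egr1 (0.556), Ier2 (0.614) and Hspa1b (0.661), and the most abundant were Junb (0.817), Fos (0.806) and Egr1. Haemoglobin genes stood at 46.7 and 187 CPM, with Hbb-bs at 5.47 (3.63 to 8.52) and Hba-a1 at 2.79 (1.63 to 4.93). Cycling genes stood at 343 and 453 CPM: of 4 passed Top2a was higher, at 2.46 (1.58 to 3.92), and Hmgb2 was the most abundant (0.867). Macrophage markers had a ratio of 1.14 (1.12 to 1.16), with Lyz2 (1.26), Mrc1 (0.815) and Csf1r (0.760) the most abundant, and 1 of 8 was lower, Mertk (0.652). The lymphoid receptor gene Il1rl1 had one of 0.373 (0.197 to 0.671). At low levels, T cell markers stood at 32.8 and 13.5 CPM, a ratio of 0.410 (0.224 to 0.720). B cell markers went the other way, at 6.98 and 15.7 CPM, a ratio of 2.25 (1.01 to 5.35). Fibroblast markers stood at 125 and 160 CPM, with Gsn the most abundant, monocyte and neutrophil markers, mostly Ccr2, at ratio 1.31 (1.13 to 1.51), dendritic cell markers, mostly Cd209a, at 206 and 155 CPM, and adipocyte markers, mostly Car3, at 112 and 78.5 CPM.

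Fibroblasts had the most UMIs and members near balance between the diets. None of the 7 passed members was at least 1.5-fold higher (0 of 7; 4.92% of 8339 genes were) or lower (0 of 7; 8.81% were). Ldha, at 177 and 254 CPM, had the highest ratio, 1.44 (1.28 to 1.61), and Pkm, at 195 and 150 CPM, the lowest of those passed, 0.768 (0.672 to 0.875). Both intervals leave out 1, and both genes kept their direction in all 11 other settings in which they were computed. Hk1 (0.785), Hk2 (0.906), Aldoa (1.05), Gapdh (0.991) and Eno1 (0.856) had intervals that include 1. So did the sparse Slc2a1 (1.15, 17 and 15 UMIs), Pfkl (0.602, 26 and 12) and Pgk1 (0.824, 19 and 12).

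The fibroblast lists beside them were near balance as well. Other glycolytic enzymes had a ratio of 0.931 (0.870 to 0.995) with 0 of 6 passed genes called; Gpi1 (0.978), Pgam1 (1.07) and Tpi1 (0.826) were the most abundant. The transporters had one of 1.06 (0.979 to 1.14), with 0 of 3 called: Bsg (1.12), the lactate carrier Slc16a1 (0.668) and Slc2a8 (1.10). The regulators stood at 0.991 (0.923 to 1.06), with 0 of 7 called, led by Mpc2 (1.18), Mpc1 (0.970) and Pdha1 (0.824). The pentose phosphate pathway stood at 1.01 (0.944 to 1.09), with 1 of 8 lower, G6pdx (0.617), and Pgls (1.12), Taldo1 (0.918) and Tkt (1.05) the most abundant. The hypoxia list had a ratio of 0.979 (0.929 to 1.03): of 18 passed genes P4ha2 (1.78) and Hilpda (1.70) were higher and Ndrg1 (0.651) and Mxi1 (0.573) lower, with Bnip3l (0.909) the most abundant.

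Other lists did differ in fibroblasts, and their part in the ratios of Ldha and Pkm was not tested. Cycling genes stood at 53.2 and 242 CPM, a ratio of 4.55 (3.83 to 5.43) over all 10 listed genes, passed or not. Of 6 passed, 5 were higher, among them Stmn1 at 4.72 (3.21 to 7.12). The others, Mki67, Cenpf, Top2a and Ube2c, had 0, 0, 2 and 2 UMIs on LFD and 69, 62, 51 and 63 UMIs on HFD. These 4 reached the UMI minimum on HFD alone. Their passing thus rested on high HFD levels, so the count of 5 of 6 cannot show a diet difference. Fibroblast markers were higher in 4 of 8, among them Col3a1 at 2.61 (2.54 to 2.67) and Lum at 2.97 (2.81 to 3.14). Mesothelial markers, led by Upk3b (0.575), stood at 861 and 517 CPM, with 5 of 6 lower and Krt19 (0.474) and Lrrn4 (0.445) the lowest. Immediate early genes stood at 19424 and 17372 CPM, led by Fos, with 1 of 14 lower, Zfp36 (0.658). At low levels, Tagln of the mural list was higher (4.06, 2.97 to 5.62), and Lyz2 (0.362), Esam (0.288) and Kdr (0.457) of other cell types were lower. Haemoglobin genes stood at 27.8 and 46.6 CPM, a ratio of 1.68 (1.26 to 2.24). Adipocyte markers stood at 14.6 and 4.95 CPM, a ratio of 0.340 (0.164 to 0.653). Monocyte and neutrophil markers had a ratio of 0.689 (0.568 to 0.833).

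Endothelial cells showed 0 of 5 passed members at least 1.5-fold higher (5.89% of 3397 genes were) and 0 of 5 lower (5.8% were). Pkm, at 186 and 246 CPM, had a ratio of 1.32 (1.01 to 1.73), and 1 barcode held 21 of its 103 LFD UMIs. Ldha, at 324 CPM (278 to 375) and 236 CPM (196 to 282), had one of 0.729 (0.575 to 0.923). That direction did not hold: the log2 ratio of Ldha was 0.34 under the study's cell limits, 0.15 with thinned barcodes and 0.00341 with overlapping barcodes kept, against −0.46. Slc2a1 had 13 UMIs on LFD and 2 on HFD, a ratio of 0.165 (0.0180 to 0.727), and with overlapping barcodes kept its log2 ratio was −1.03 in place of −2.60. The remaining ratios, Hk1 0.908, Pfkl 0.688, Aldoa 0.965, Gapdh 1.04, Pgk1 0.803 and Eno1 1.12, had intervals that include 1.

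Of the endothelial lists, other glycolytic enzymes had a ratio of 1.02 (0.856 to 1.21) with 0 of 4 passed genes called, led by Gpi1 (1.04), Tpi1 (0.988) and Pfkp (1.05). The transporters stood at 0.954 (0.779 to 1.17), mostly Bsg (1.03), the 1 gene that passed. The regulators were lower on HFD, with a ratio of 0.628 (0.535 to 0.736) and 2 of 3 passed genes lower: Pfkfb3 (0.638), whose product raises the activator of phosphofructokinase, and Mpc1 (0.627), beside Mpc2 (0.717). The pentose phosphate pathway stood at 0.785 (0.659 to 0.934), with 1 of 3 lower, Tkt (0.522), beside Taldo1 (0.985) and Pgls (0.699). The hypoxia list stood at 1.03 (0.951 to 1.13): of 8 passed Hif1a (1.59) was higher and Adm (0.612) lower, and the most abundant were Epas1 (1.03), Ndrg1 (0.971) and Egln1 (1.09).

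HFD endothelial barcodes were shallower, and their mitochondrial median was 4.15% against 3.41%. Adipocyte markers stood at 1310 CPM on LFD and 414 CPM on HFD, with 3 of 3 passed lower: Car3 (0.292), Adipoq (0.313) and Cidec (0.373). Haemoglobin genes, led by Hbb-bs (1.42), stood at 5853 and 8006 CPM, with Hbb-bt at 3.20 (2.64 to 3.89). Immediate early genes, led by Junb, stood at 18588 and 15981 CPM, with 1 of 13 higher, Nr4a1 (1.77). The mural, macrophage and cycling lists were higher on HFD too. Not every list of other cells was: fibroblast markers had a ratio of 1.03 (0.764 to 1.38), and mesothelial markers had 7 and 0 UMIs. Mural markers, led by Rgs5, stood at 175 and 267 CPM, a ratio of 1.52 (1.17 to 1.99), with 0 of 1 passed called and 1 of 10 at 0 UMIs. Macrophage markers, led by Mertk, stood at 59.7 and 98.7 CPM, one of 1.65 (1.05 to 2.65), with 0 of 8 passed and 2 at 0 UMIs. Cycling genes, led by Hmgb2, stood at 329 and 436 CPM, one of 1.32 (1.08 to 1.62), with 0 of 2 called. The part of these differences in the member ratios was not tested.

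T cells and mural cells gave few UMIs. In T cells 0 of 5 passed members were at least 1.5-fold higher (11.3% of 1081 genes were) and 1 was lower, Eno1 (22.8% were). Eno1 had 59 and 3 UMIs and a ratio of 0.355 (0.0712 to 1.09), an interval that includes 1. The class held 327944 UMIs on LFD and 46943 on HFD, and all 5 members reached the UMI minimum on LFD alone. Passing thus favoured genes high on LFD, in the lists below too, so the Eno1 call cannot show a diet difference. The summed T cell ratio was 0.912 (0.722 to 1.14), and 0.951 (0.747 to 1.20) without the 7 barcodes rich in macrophage markers, a step chosen after seeing the data. In the lists Gpi1 was higher, at 2.03 (1.09 to 3.60), and Mpc1, with 56 and 2 UMIs, lower, at 0.250 (0.0295 to 0.944). Of 11 passed immediate early genes Ier2 (1.64) was higher and 7 were lower, among them Fos (0.466), Fosb (0.353), Egr1 (0.295), Atf3 (0.244), Zfp36 (0.185) and Nr4a1 (0.421). Stmn1 (0.159) was lower and the T cell markers Cd2 (2.66) and Lck (2.04) higher; Lyz2 (1412 and 2 UMIs) and Cd14 (86 and 0) are macrophage markers. B cell markers had 48 UMIs on LFD and 0 on HFD. Endothelial markers, from 10 and 9 UMIs, had a ratio of 6.29 (2.26 to 17.2). Haemoglobin genes, from 11 and 6 UMIs, had a ratio of 3.81 (1.16 to 11.2). The part of these in the T cell ratios was not tested. With barcodes that met other rules kept, the mural rule gave 64 and 116 barcodes, in which Hk1 stood at 37.6 and 60.2 CPM, a ratio of 1.60 (1.06 to 2.44); the other 9 intervals include 1.

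Cd9 marks the macrophage group that the study connects with obesity, so the members were also compared between Cd9-positive and Cd9-negative macrophages. The Cd9-negative HFD macrophages stand in this comparison and in the diet comparison. On HFD the sum was 2640 CPM in 116 Cd9-positive and 1538 CPM in 204 Cd9-negative barcodes, a ratio of 1.72 (1.63 to 1.81). Under the study's cell limits, with 26 and 47 barcodes, this reversed slightly, to a log2 ratio of −0.0456 against 0.78.

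Depth went with Cd9, with HFD medians of 8879.5 UMIs in Cd9-positive and 6460.5 in Cd9-negative barcodes. Among HFD barcodes with at most 2500 genes, a split chosen after seeing the data, the sum was 1432 CPM (1307 to 1566) in 55 Cd9-positive and 1357 CPM (1280 to 1437) in 155 Cd9-negative barcodes, a ratio of 1.06 (0.947 to 1.17). Among those with over 2500 genes it was 2970 CPM (2875 to 3068) in 61 and 1859 CPM (1739 to 1984) in 49, a ratio of 1.60 (1.49 to 1.72). The split did not equalize depth. Median UMIs of Cd9-positive and Cd9-negative barcodes were 6118 and 5679 with at most 2500 genes, and 14156 and 9409 with more. A single barcode held 149 of the 1503 Gapdh, 112 of the 915 Pkm and 85 of the 685 Ldha UMIs of the Cd9-positive class.

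**Figure D3:**
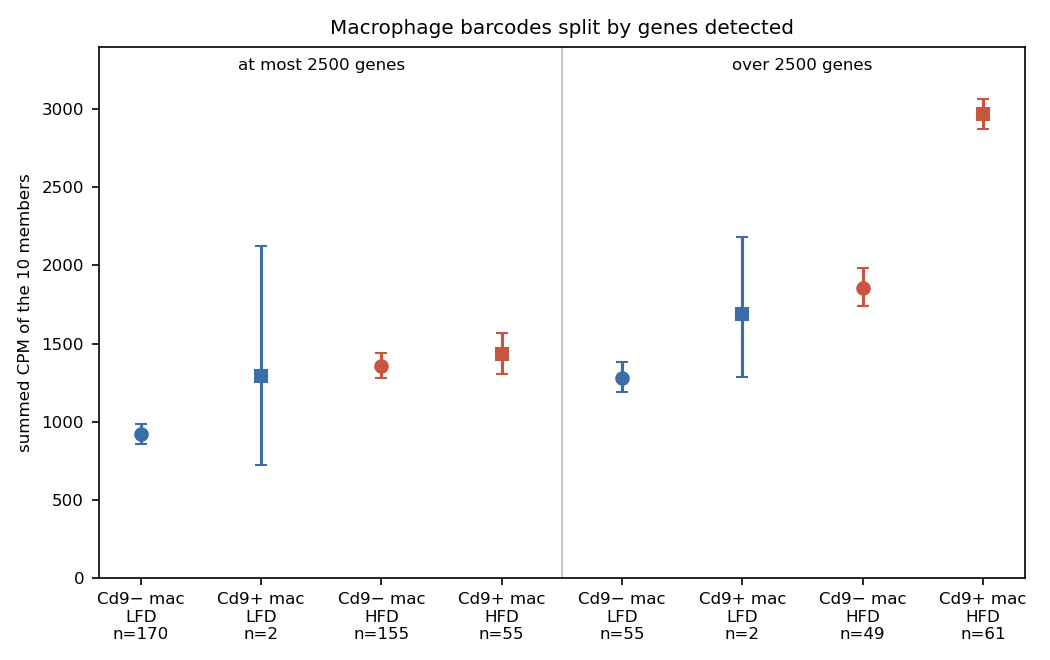
Summed CPM of the 10 members (vertical axis) in macrophage barcodes with at most and with over 2500 genes; circles are Cd9-negative and squares Cd9-positive, LFD is blue and HFD red, n counts barcodes, and bars are exact Poisson 95% intervals. Among barcodes with at most 2500 genes the HFD classes overlap, at 1432 and 1357 CPM, and among those with over 2500 genes Cd9-positive barcodes stand at 2970 CPM.

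By gene, Pkm stood at 585 CPM in Cd9-positive and 297 CPM in Cd9-negative HFD macrophages, a ratio of 1.97 (1.75 to 2.22). Aldoa had a ratio of 1.90 (1.65 to 2.18), Ldha 1.83 (1.60 to 2.10) and Gapdh 1.66 (1.52 to 1.81). These 4 enzymes were higher with Cd9 over all barcodes. With at most 2500 genes, a split chosen after seeing the data, the intervals of all 4 include 1: Aldoa 1.24 (0.939 to 1.63), Gapdh 1.09 (0.914 to 1.30), Pkm 1.07 (0.827 to 1.37) and Ldha 1.01 (0.759 to 1.32). Slc2a1, with 30 and 6 UMIs, had a ratio of 4.28 (1.75 to 12.6) but did not reach 50 UMIs. Eno1, at 143 and 135 CPM, had one of 1.06 (0.867 to 1.30). Hk1 (1.13), Hk2 (1.24), Pfkl (0.927) and Pgk1 (1.71) had intervals that include 1. Under the study's cell limits the log2 ratios of Gapdh, Pkm and Ldha were −0.20, −0.0333 and −0.11, while that of Aldoa was 0.67; thinning brought Ldha to 0.0704.

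On HFD 4 of the 7 passed members were at least 1.5-fold higher in Cd9-positive macrophages (14.1% of 5843 genes were) and 0 of 7 lower (15% were). In both libraries at once it was 2 of 8, Pkm and Ldha (5.23% of 7137 genes), and 0 of 8 were lower (9.61%). The LFD side rests on 4 barcodes and 74 member UMIs, with 12 of the 13 Ldha UMIs in 1 barcode, and the LFD summed ratio was 1.51 (1.18 to 1.91). For Pkm the LFD ratio was 1.52 (0.820 to 2.59), an interval that includes 1, and 1 barcode held 8 of the 14 UMIs. The diet comparison within Cd9-positive macrophages rests on the same 4 barcodes: 4 of 5 passed members were at least 1.5-fold higher on HFD (36.4% of 4017 genes were) and 1 lower, Eno1 (21.5% were). The class held 46529 UMIs on LFD and 1563664 on HFD, and all 5 members reached the UMI minimum on HFD alone. LFD and HFD UMIs were 6 and 670 for Aldoa, 26 and 1503 for Gapdh, 14 and 915 for Pkm, and 13 and 685 for Ldha. Passing thus favoured genes high on HFD, so the count of higher members cannot show a diet difference. The summed ratio of this diet comparison was 1.66 (1.32 to 2.12). Cycling genes stood in this class at 4105 CPM on LFD against 1076 CPM on HFD. The 4 LFD barcodes held 0 Hilpda UMIs, against 578 on HFD. Taking all macrophages together, 229 and 320 barcodes and a choice made after seeing the data, gave a summed diet ratio of 1.99 (1.88 to 2.10) and 2.90 (2.47 to 3.42) for Ldha, and Slc2a1 had 1 and 36 UMIs. That ratio also holds the larger number of Cd9-positive barcodes on HFD.

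Of the 5 other lists, 3 had summed ratios of 1.47 to 1.69 with Cd9 on HFD. Other glycolytic enzymes had a ratio of 1.55 (1.41 to 1.70), with Pgam1, the mutase between Pgk1 and Eno1, at 2.38 (1.95 to 2.92) and Hk3 at 2.48 (1.70 to 3.68); these were 2 of 5 passed genes, beside Gpi1 (1.16) and Tpi1 (1.49). The pentose phosphate pathway had one of 1.47 (1.36 to 1.59), with G6pdx (1.58), Pgls (1.57) and Pgd (1.51) higher of 5 passed, beside Taldo1 (1.49) and Tkt (1.38). The hypoxia list had one of 1.69 (1.55 to 1.85), with 5 of 11 higher: Hilpda at 3.46 (2.88 to 4.18), Vegfa, the vascular growth factor, at 5.89 (2.91 to 13.5), Ndrg1 at 2.19, Mxi1 at 2.14 and Bnip3l at 1.78. The regulators had a summed ratio of 1.14 (1.03 to 1.27) and the transporters one of 1.11 (0.977 to 1.27). Pfkfb3 (0.404) and Gpd2 (0.475) were lower among 7 passed regulators, in which Mpc1 (1.5) and Pfkfb4 (1.51) were higher and Mpc2 stood at 1.24. Of the transporters Bsg, the 1 gene that passed, stood at 1.20.

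Beside these, cycling genes stood at 1076 CPM in Cd9-positive and 453 CPM in Cd9-negative barcodes, with 7 of 9 passed genes higher, among them Birc5 (6.29), Ube2c (4.25), Cdk1 (3.51), Stmn1 (3.34) and Mki67 (2.77). Immediate early genes stood at 7356 and 11920 CPM, with 6 of 14 lower: Jun (0.348), Egr1 (0.357), Ier2 (0.373), Ier3 (0.364), Hspa1a (0.178) and Hspa1b (0.0648). Of 8 macrophage markers 3 were lower, Mrc1 (0.231), Mertk (0.528) and Csf1r (0.548), with Lyz2 (1.06) the most abundant. Dendritic cell markers, mostly Cd209a (0.0252), stood at 5.76 and 155 CPM, and monocyte markers, mostly Ccr2 (0.285), at 91.5 and 325 CPM. Fibroblast markers, mostly Gsn (2.35), stood at 351 and 160 CPM, and haemoglobin genes, Hbb-bs (0.335) and Hba-a1 (0.181), at 53.1 and 187 CPM. Median mitochondrial shares were 5.42% and 5.61%. The part of these differences, and of depth, in the Cd9 ratios was not tested.

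Genes with the most similar profile were sought over 12 values, 6 classes by 2 libraries, that share libraries and depth. Of 8530 genes, Ssna1 (r = 0.94), Ltv1 (0.93), Eed (0.92), Mpnd (0.92) and Uhrf2 (0.92) lay closest to the members' mean profile. Among the members, Eno1 followed that mean most closely (0.86) and Hk1 (0.03) and Aldoa (−0.42) least. Each member is itself part of the mean, which fixes part of these values. Hk2 stood at 0.49 and the other 6 between 0.70 and 0.79. Classes of 4 to 6 barcodes enter these values.

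By position in GRCm38 with GENCODE M21, which holds 27645 of the 27998 gene identifiers, all 10 members are protein-coding. Slc2a1 (ENSMUSG00000028645) lies at chr4:119108711-119137983, plus strand, and Eno1 (ENSMUSG00000063524) on the same chromosome at chr4:150236721-150248879, plus strand. Hk1 (ENSMUSG00000037012) lies at chr10:62268855-62379908 and Pfkl (ENSMUSG00000020277) at chr10:77986947-78010083, both on the minus strand. Hk2 (ENSMUSG00000000628) lies at chr6:82725025-82774454 and Gapdh (ENSMUSG00000057666) at chr6:125161715-125166467, both minus. Aldoa (ENSMUSG00000030695) lies at chr7:126795234-126800751, minus, and Ldha (ENSMUSG00000063229) at chr7:46841475-46855627, plus. Pgk1 (ENSMUSG00000062070) lies at chrX:106187100-106203699, plus, and Pkm (ENSMUSG00000032294) at chr9:59656368-59679375, plus. Of the 10, 8 thus share a chromosome with 1 other member, at a distance.

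Near copies could limit the counting of some of them. The last 400 bases of Gapdh transcripts match 59 other annotated genes, nearly all processed pseudogenes, over at least 90 bases at 98% identity or more. Ldha and Eno1 each have 2 such copies and Pkm has 1, and the other 6 members have 0. Of the copies, Eno1b (4 and 4 UMIs) and Gm3839 (0 and 1) are listed in the files. How reads shared with copies were assigned was not tested.

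Upstream sequences are shown because Ldha and Eno1 were higher on HFD in Cd9-negative macrophages while Hk2 was not. The 250 bases before the RefSeq start (GRCm38.p6) were searched on both strands for ACGTG or GCGTG, letters at the core of the element that hypoxia-inducible factors bind; a palindrome such as CACGTG counts on each strand. Of all 32851 windows, 38.6% hold at least 1 match, 16.7% at least 2 and 1.01% at least 5. Of the 17 windows of the members, which all 10 have, 14 hold at least 1, and the first of the 2 Ldha windows holds 5. The last 2 windows of Aldoa overlap and hold the same match, and the last 2 of Eno1 the same 2 matches, so the 14 are not all separate. The first of the 3 Eno1 windows has 1 match and the window of Hk2 has 2, and the first Pkm window, not printed because it overlaps exons, has 0. Capitals mark the matches, which are a description of letters and show no binding. The windows printed lie at chr7:46845554-46845803 (plus) for Ldha, chr4:150236458-150236707 (plus) for Eno1 and chr6:82774455-82774704 (minus) for Hk2.
Ldha: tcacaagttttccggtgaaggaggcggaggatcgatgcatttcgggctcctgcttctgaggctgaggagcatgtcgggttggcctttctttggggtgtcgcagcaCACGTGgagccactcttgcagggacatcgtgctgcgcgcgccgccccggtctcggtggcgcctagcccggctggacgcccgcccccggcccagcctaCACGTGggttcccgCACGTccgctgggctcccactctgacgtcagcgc
Eno1: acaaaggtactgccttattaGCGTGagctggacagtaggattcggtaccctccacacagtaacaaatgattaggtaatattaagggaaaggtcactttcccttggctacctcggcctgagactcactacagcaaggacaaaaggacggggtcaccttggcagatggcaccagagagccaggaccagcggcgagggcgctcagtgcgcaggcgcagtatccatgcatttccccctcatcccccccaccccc
Hk2: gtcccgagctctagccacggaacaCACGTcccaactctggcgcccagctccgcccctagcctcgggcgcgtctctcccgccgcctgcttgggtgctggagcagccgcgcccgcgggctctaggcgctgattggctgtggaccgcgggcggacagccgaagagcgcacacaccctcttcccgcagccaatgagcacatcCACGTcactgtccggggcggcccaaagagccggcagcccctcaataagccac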

How the data were processed

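Per the file headers and the study's methods, the deposited values are raw counts (UMIs per gene and barcode) that the authors made with Cell Ranger on mm10 from 10x 3′ v3 libraries, 1 per diet. The methods give version 3.1.0 and the headers 3.0.2. Both libraries were used whole, and 0 columns were left unmapped.

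The members and lists were chosen with earlier results of these data known. Barcodes with at least 200 genes were classed by summed UMIs of the rule genes: at least 10 for fibroblasts, 3 endothelial, 5 mural, 10 macrophage and 2 for T cells. Barcodes meeting several rules were left out. UMIs were pooled by class and library and divided by all UMIs of the class. Ratios and intervals used numpy 2.4.6, scipy 1.17.1 and pandas 2.3.3 on Python 3.11.15, and were tested on simulated data. No test was made, as there is 1 library per diet. Genes needed 50 UMIs over both libraries, in the class compared, to enter a count at 1.5-fold. Likeness is Pearson's r on log2 CPM with 10 added; medians over members used 0.5 added UMIs.

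All members are named. Of each list the rule names the 3 most abundant genes and any with 50 UMIs at least 2-fold apart whose interval leaves out 1; sparser genes, such as Pdk4 in fibroblasts (33 and 8 UMIs), were not searched; marker lists are mostly given by their most abundant gene. Other list genes called at 1.5-fold were chosen after their values were seen, and so were the 3 upstream windows printed.

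Scrublet in scanpy 1.11.5 (expected share 1%) called 20 of 1113 LFD and 26 of 1144 HFD barcodes doublets, 5 and 4 of them in a class; they were kept and left out in an alternative. Other alternatives changed the cell limits, overlaps, mitochondrial limit (10%), averaging, scaling (edgeR 4.0.16, DESeq2 1.42.0, R 4.3.3), denominator, class thresholds, thinning to 1000 UMIs, fold and UMI minimum. Copies were found with BLAST 2.17.0, and figures drawn with matplotlib 3.10.9.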

Additional observations from a re-analysis of the deposited data

Results flagged for a closer look

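Pkm and Ldha had diet ratios on opposite sides of 1 in different classes, with counting intervals that leave out 1. Each class rests on 1 library per diet, and none of the differences was tested.

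The log2 ratio of HFD to LFD of Pkm was 0.78 higher in endothelial cells than in fibroblasts, where the ratios were 1.32 and 0.768. Against the same fibroblasts it was 1.34 higher in Cd9-positive macrophages, from 4 LFD barcodes, and 0.97 higher in Cd9-negative macrophages, whose ratio was 1.5.

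The log2 ratio of Ldha was 0.98 higher in fibroblasts than in endothelial cells, with ratios of 1.44 and 0.729. It was 1.52 higher in Cd9-negative macrophages, with a ratio of 2.09, than in endothelial cells. The endothelial direction of Ldha turned under 3 alternatives, with log2 ratios of 0.34, 0.15 and 0.00341.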

How the results depend on the processing

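No paired analysis was possible because each diet has 1 library. Of 338 recomputed sums and member counts, 272 kept their value or direction and size, 64 moved and 2 reversed; of 619 recomputed single-gene ratios, 561 stayed, 44 moved and 14 reversed. Ldha was higher on HFD in Cd9-negative macrophages under all 11 alternatives run, at log2 ratios from 0.97 to 1.29, and Pkm at 0.43 to 1.15. A ratio was counted as reversed when its direction changed and the main value was at least 1.5-fold, and as moved when it otherwise left the main counting interval; a count moved when it changed by over 1.5 times. Changes of direction in smaller main values, as in the summed diet ratios of mural, endothelial and fibroblast cells, are therefore not counted as reversed. The cause was not tested for any difference below. Sums are log2 ratios, and counts are members at least 1.5-fold apart unless another limit is named.

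Under the study's cell limits the summed diet ratio was −0.0812 in fibroblasts, 0.17 in endothelial cells, 0.69 in Cd9-negative macrophages and 0.97 in mural cells, which had 1 barcode in each library; Cd9-positive macrophages had 1 barcode on LFD. Counts lower on HFD were 1 in fibroblasts, 0 in Cd9-positive macrophages and 0 in T cells, and 1 member was higher in Cd9-positive macrophages. There the diet ratios of Aldoa and Pkm reversed to −0.17 and −0.11. The Cd9 sum reversed to −0.0564 on LFD and −0.0456 on HFD, where Gapdh, Pkm and Ldha reversed to −0.20, −0.0333 and −0.11, and 1 member was higher in both libraries. Against other classes, 1 member was low in fibroblasts, 2 were high in endothelial cells and 2 were low in T cells.

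With barcodes thinned to 1000 UMIs, 1 member was lower on HFD in fibroblasts and 1 in endothelial cells, 2 were higher and 0 lower in Cd9-positive macrophages, 1 was higher in Cd9-negative macrophages and 0 were lower in T cells. The summed diet ratio in Cd9-positive macrophages was 0.13, and Ldha reversed there to −1.10. The Cd9 sum was 1.04 on LFD and 0.65 on HFD, Pgk1 reversed to −0.19 on HFD, and 1 member was higher in both libraries. Against other classes, 1 member was low in fibroblasts, 1 in endothelial cells and 0 in Cd9-negative macrophages.

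Averaging over barcodes gave 1 member lower on HFD in Cd9-negative macrophages, 1 higher and 2 lower in T cells, 1 higher with Cd9 in both libraries, and a Cd9 sum of 0.48 on HFD. Hk1 reversed to −0.76 with Cd9 on LFD and Pgk1 to −0.30 on HFD, and in T cells 1 member was high and 1 low against other classes. TMM and DESeq2 size factors each left 0 members lower on HFD in Cd9-positive macrophages and 2 in T cells, with Cd9-positive sums of 1.19 and 1.14.

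With no UMI minimum, the members lower on HFD were 1 in fibroblasts, 1 in endothelial cells, 2 in Cd9-positive macrophages, 5 in T cells and 3 in mural cells, and those higher were 5 in Cd9-negative macrophages and 1 in mural cells. At a minimum of 200 UMIs 0 were lower in T cells. At a limit of 2-fold, 1 was higher and 0 lower in Cd9-positive macrophages and 1 higher in Cd9-negative macrophages.

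With overlapping barcodes kept, 1 member was higher in mural cells, Hk1 and Eno1 reversed to 0.12 and 0.14 in the diet ratio of Cd9-positive macrophages, and Hk1 to −0.33 with Cd9 on LFD. Under 10% mitochondrial UMIs, 1 member was lower in Cd9-negative macrophages and 1 high in endothelial cells. Doubled thresholds gave 1 lower in Cd9-negative macrophages and 1 high in T cells. Without mitochondrial, ribosomal and haemoglobin genes in the denominator, 4 were high in T cells.

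The following were chosen after seeing the data. With all macrophages in place of the Cd9-negative ones the summed diet ratio was 0.99. With at most 2500 genes it was 0.15 in Cd9-positive macrophages, and the Cd9 sum on HFD was 0.0779, against 0.68 over 2500 genes. In the HFD library alone, 4 members were higher with Cd9. Splitting by Cd9 after thinning gave 0 higher in both libraries and a Cd9 sum of 0.38 on HFD, and reversed Pkm on LFD to −0.10 and Pgk1 on HFD to −1.49. With 4 classes only, 2 members were high in fibroblasts and 1 in endothelial cells.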

Other observations

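Barcodes that met the endothelial and the mural rule and no other, 51 on LFD and 92 on HFD, were deep, with medians of 13270 and 9029 UMIs, and none was called a doublet. Their members summed to 1529 and 1509 CPM, a ratio of 0.987 (0.912 to 1.07). Hk1 stood at 41.1 and 64.8 CPM, a ratio of 1.58 (1.01 to 2.52), and Eno1 at 60.9 and 31.9 CPM, one of 0.523 (0.319 to 0.847). Hk2 had 1 UMI in each library.

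Barcodes that met no rule, 210 and 243, held 2162 and 2101 CPM of the members. Aldoa stood at 382 and 264 CPM, a ratio of 0.693 (0.584 to 0.822), Pfkl at 43.7 and 22.9 CPM, one of 0.525 (0.295 to 0.924), and Ldha at 377 and 413 CPM, one of 1.10 (0.938 to 1.28).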
